A study of Mus musculus with 12 samples.

Results

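The cytosolic ribosomal protein genes are the 85 genes, of 24532 in the deposited table, whose symbols are Rpl or Rps followed by a number with an optional letter, Rplp0 to Rplp2, or Rpsa. Of these, 52 carry names of the large subunit or its paralogs and 33 carry names of the small subunit or its paralogs. Rps4l, among the 33, is annotated as a transcribed pseudogene. The rule uses the symbol and no measured value. Pseudogenes with a -ps suffix, retrocopies with an rt suffix and the 78 mitochondrial ribosomal protein genes were not counted among them. Fau, which encodes a ribosomal protein fused to a ubiquitin-like protein, and Rack1, a small-subunit protein with another naming style, were kept beside them as related genes.

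The RNA came from whole livers of male C57BL/6 mice in 4 groups of 3. All mice carried the Ahr fl/fl alleles. The WT mice were littermates without Cre, and the Ahr HKO mice carried Alb-Cre. The albumin promoter directs the recombinase, and with it the loss of Ahr exon 2, to hepatocytes. The paper describes the deletion as specific to hepatocytes. Whether the other liver cells of the HKO mice kept the receptor was not checked here. Each genotype received either a control liquid diet (WT control, HKO control) or the Lieber-DeCarli ethanol liquid diet with 5% ethanol by volume, 36% of calories (WT ethanol, HKO ethanol), for 5 weeks from an age of 10 to 12 weeks. The labels number the livers within a group, and P values measure the spread between these livers.

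Every ribosome in the cytosol is built from a small subunit, which reads the mRNA, and a large subunit, which joins the amino acids, and nearly every ribosomal protein is present in a single copy per particle. Because the subunits are assembled from stoichiometric parts in the nucleolus, the genes of these proteins are usually transcribed at similar and high levels in all cell types. Most of their mRNAs begin with a C followed by an unbroken run of pyrimidines, the 5′ terminal oligopyrimidine (TOP) motif, through which mTORC1 and the protein LARP1 set their translation. That layer of control acts on ribosome loading and need not show in mRNA counts. In the liver, ribosomes make up a large part of the RNA of each hepatocyte and serve the secretion of plasma proteins.

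The libraries held 46306518 to 74336255 counts on genes. CPM, the read count relative to library size, scaled by the trimmed mean of M values, is the level used between libraries, and 3 counts correspond to 0.0425 to 0.0676 CPM. Such limits cover counting error only. Among the 66 pairs of libraries none held identical counts. Ahr, counted over the whole gene, stood at 16.6 to 20.1 CPM in WT control and at 41.3 to 65.5 CPM in HKO control, and a count over the whole gene cannot check the loss of exon 2, so the groups are given as labelled. Hepatocyte markers (Alb, Apoa1, Ttr, Serpina1a, Cps1 and Fgb) summed to 84442 CPM or more in every library, and no marker of any of the 7 cell type lists was at 0 in all 12 libraries. The cholangiocyte markers reached 476 CPM in HKO control replicate 1 against 37.1 to 180 CPM in the other libraries, and the proliferation markers reached 12.1 CPM in WT ethanol replicate 2 against 1.4 to 5.24 CPM elsewhere. HKO control replicate 3 had 0 counts of Hbb-bs, a hemoglobin gene with 4171 to 17222 counts in the others.

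The 5′ ends of some of the genes named below are shown first, because the TOP motif is the sequence feature these genes are best known for. Each line gives 30 bases around an annotated transcription start of RefSeq on GRCm38.p6, from 10 bases before the start to 20 bases from it on, 5′ to 3′ on the gene's own strand. Capitals mark a C followed by at least 5 further C or T bases that begins within 10 bases of the start. Rpl35a has 3 annotated starts and Rpl34 has 2, and the start with the longest run is printed. No entry was found for Rpl29, Rplp1, Rpl7, Rpl3 or Rps4l. Of the other genes named below, Rpl3l, Rpl5, Rpl10, Rpl10l, Rpl11, Rpl22, Rpl41, Rplp0, Rps4x and Rpsa had no such run in any window. Rpl39, Rpl39l, Rplp2, Rps19 and Rps27l did have such a run. The printed lines are therefore not a sample of the set.
Rpl35 at chr2:39005112-39005141, minus strand: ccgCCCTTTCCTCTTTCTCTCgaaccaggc
Rpl35a at chr16:33056472-33056501, plus strand: gcttgCCTTCCTCTTTCCgccatcttggcg
Rpl34 at chr3:130730318-130730347, minus strand: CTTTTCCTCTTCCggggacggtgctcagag
Rpl22l1 at chr3:28805498-28805527, plus strand: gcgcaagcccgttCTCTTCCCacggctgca
Rpl7l1 at chr17:46782637-46782666, minus strand: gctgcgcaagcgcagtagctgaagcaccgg
Rps27 at chr3:90213629-90213658, minus strand: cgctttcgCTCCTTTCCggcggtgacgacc
Rps18 at chr17:33955646-33955675, minus strand: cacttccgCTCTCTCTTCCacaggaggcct
Rps6 at chr4:86857348-86857377, minus strand: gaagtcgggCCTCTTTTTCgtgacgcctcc

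Such a run was found in 36 of the 76 start windows of 64 ribosomal protein genes, or 47.4%. Over all 32851 windows of the table the share was 19.2%, among the mitochondrial ribosomal protein genes it was 21.3% of 75 windows, and among the ribosome biogenesis genes it was 12.8% of 94. With at least 7 further pyrimidines the shares were 32.9%, 8.11%, 6.67% and 4.26% in the same order. Rpl7l1, which encodes a relative of a yeast assembly factor of the large subunit precursor, had no such run in its window, and Rpl22l1, the paralog of Rpl22, had a run of 8 bases. The search used the strand of the gene, and a match describes the letters near an annotated start, which can lie some bases away from the start used in liver.

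The ribosomal protein genes were among the most abundant transcripts of the liver. The median of their mean FPKM (the deposited level per transcript length and library size) was 234, against 3.81 for all 14038 genes tested and 20.4 for the mitochondrial ribosomal protein genes, and 72 of 85 exceeded an FPKM of 100. Rplp1, a protein of the acidic stalk that recruits elongation factors, was highest with a mean FPKM of 943 (775 to 1152 over the 12 libraries). Rpl41, the smallest of the ribosomal proteins, had a mean FPKM of 660 (531 to 768), and Rps18, a protein of the small-subunit head, had 619 (519 to 740). The ranges of Rpl41 and Rps18 overlapped almost fully, so their order was not larger than the spread between libraries. The genes lie on 19 chromosomes, with at most 14 on a single chromosome (chromosome 7).

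**Figure D1:**
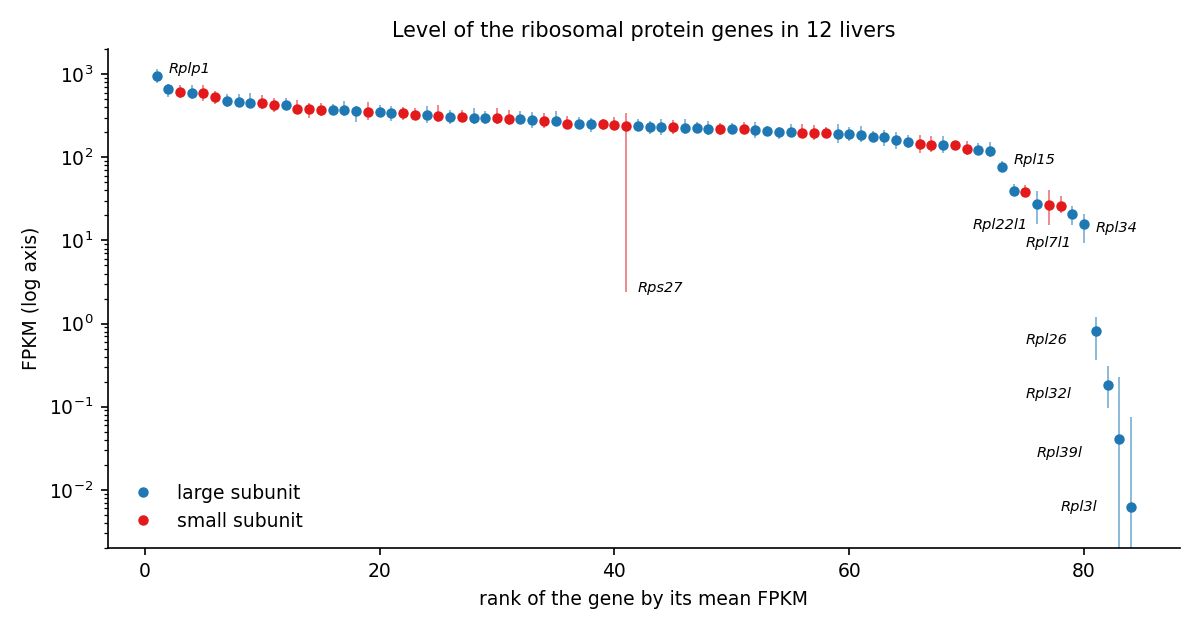
Mean FPKM over the 12 libraries of each ribosomal protein gene on a log axis, ranked and colored by subunit, with a line from the lowest to the highest library (a line that reaches the bottom includes libraries at 0, and Rpl10l, at 0 throughout, has no point). Most genes sit above 100 FPKM, led by Rplp1 at 943, and the long line of Rps27 comes from HKO control replicate 3. A tail that includes paralogs, genes with a copy and other genes, such as Rpl15, lies lower.

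Below an FPKM of 100 stood a smaller set with mean values of 75.5 for Rpl15, 39.5 for Rpl22, 37.9 for Rps20, 27.3 for Rpl22l1, 26.4 for Rps4l, 26.2 for Rps15a, 20.8 for Rpl7l1, 15.9 for Rpl34 and 0.808 for Rpl26. FPKM also divides by transcript length, so a low FPKM need not mean few counts. Rpl15, Rps20 and Rps15a had mean levels of 143, 135 and 139 CPM. Rps7, with a mean FPKM of 142, had a mean of 140 CPM. Several paralogs were at or close to 0. Rpl10l, the testis paralog of Rpl10, had 0 counts in all 12 libraries. Rpl3l, the paralog of Rpl3 in striated muscle, had 8 counts, all in HKO ethanol replicate 1, and Rpl39l, the paralog of Rpl39, had 22 counts in all. Rpl32l had 4 to 10 counts per library. These 4 genes did not pass the filter on low counts, which left 81 tested, 48 of the large and 33 of the small subunit. The partner genes were high, with Rpl3, Rpl10 and Rpl39 among those tested in every comparison.

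Several low values belong to genes with a near-identical copy elsewhere in the genome, and for these the count of either locus is uncertain. Between Rps27 (chr3:90212667-90213648) and Rps27rt (chr9:114982366-114982739) all 255 bases of the open reading frame are the same in GENCODE M21 on GRCm38. Rps27 is a zinc-finger protein of the small subunit. In HKO control replicate 3 Rps27 had 75 counts and Rps27rt 3837, while in the other 11 libraries Rps27 had 3614 to 6991 counts and Rps27rt 19 to 54. Added together, the pair gave 78.9 to 112 CPM, with HKO control replicate 3 at the lower end of that range. The open reading frame of both loci begins as follows.
Rps27 and Rps27rt, bases 1 to 60: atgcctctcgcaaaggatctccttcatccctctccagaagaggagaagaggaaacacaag

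Rpl34 (chr3:130726827-130730398) and Rpl34-ps1 (chr6:71124589-71125001) match at 352 of 354 bases, and differ by T132C and C318G, with the base of Rpl34 first and positions counted from the A of the start codon. Rpl34-ps1 held 88.6% to 94.0% of the summed counts, since Rpl34 had 251 to 717 counts and the copy 3941 to 7210. Rpl26 (chr11:68901566-68904534) and Gm15772 (chr5:3236390-3236928) match at 436 of 438 bases and differ by C177T and T288C. There 99.7% to 99.9% of the counts stood at the copy, with 10 to 40 counts for Rpl26 and 10557 to 18988 for Gm15772. The first differing base of each pair is shown in capitals.
Rpl34, bases 102 to 161: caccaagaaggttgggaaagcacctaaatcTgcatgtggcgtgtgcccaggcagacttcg
Rpl34-ps1, bases 102 to 161: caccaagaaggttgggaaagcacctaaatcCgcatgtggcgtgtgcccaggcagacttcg
Rpl26, bases 147 to 206: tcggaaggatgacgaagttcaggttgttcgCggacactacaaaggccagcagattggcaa
Gm15772, bases 147 to 206: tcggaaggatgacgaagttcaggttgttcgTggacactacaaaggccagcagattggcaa

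The sums of these pairs were at the level of other ribosomal protein genes, 87.7 to 122 CPM for Rpl34 with its copy and 211 to 303 CPM for Rpl26 with Gm15772. For Rpl37 and Rpl37rt, which match at 293 of 294 bases (G249A), only 1.54% to 2.41% of the counts stood at the copy. Exact stretches of 100 bases, the length of a read, were shared with transcripts of another gene by 77 of the 85 genes. The median share of a gene's own stretches was 12.8% over all 85 genes, and the share was 55.3% for Rpl36. How the authors assigned reads that match several places is not given in the sources used here.

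**Figure D2:**
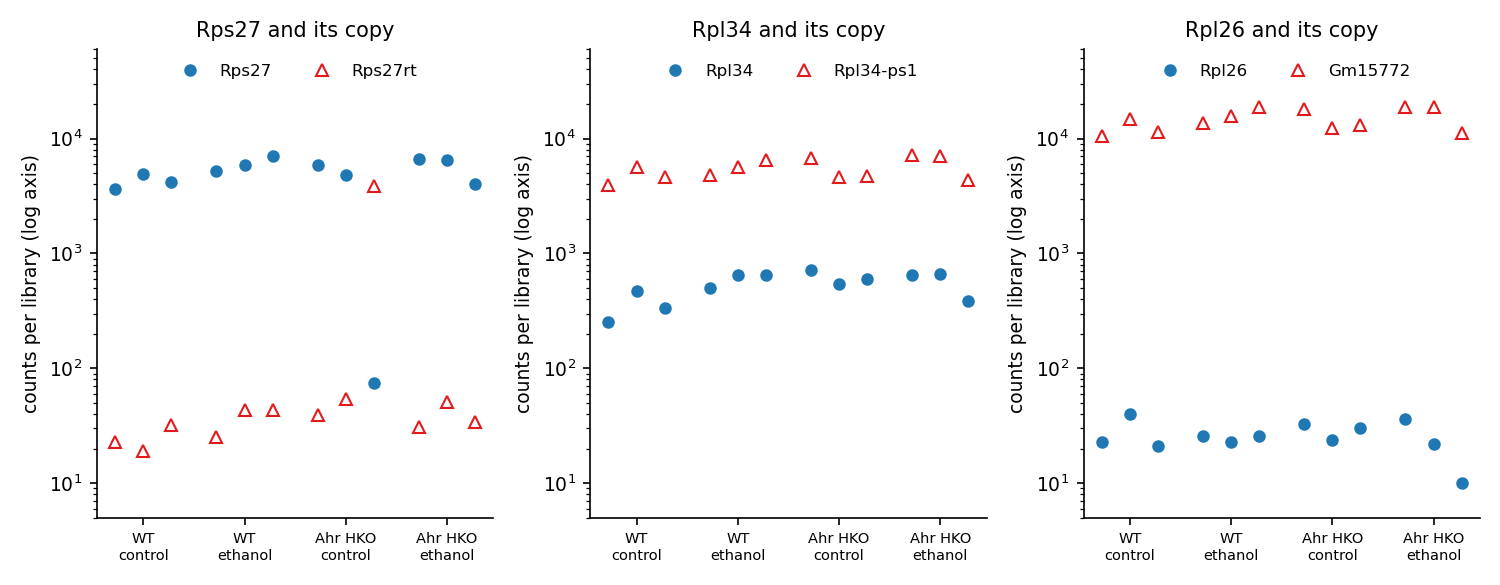
Counts of Rps27, Rpl34 and Rpl26 (filled circles) and of their copies (open triangles) in each of the 12 libraries by group, on a log axis. In HKO control replicate 3 Rps27 (75 counts) and Rps27rt (3837) change places, and Rpl34 and Rpl26 lie below their copies in all 12 libraries.

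The ribosomal protein genes took up 1.47% to 2.01% of all counts. The shares were 1.5%, 1.69% and 1.54% in WT control, 1.69%, 1.85% and 2.01% in WT ethanol, 1.81%, 1.47% and 1.5% in HKO control, and 1.62%, 1.74% and 1.56% in HKO ethanol. WT ethanol was the highest group at 1.85% ± 0.157 (SD, n = 3), against 1.58% ± 0.097 in WT control, 1.59% ± 0.191 in HKO control and 1.64% ± 0.093 in HKO ethanol, and its lowest library lay just above the highest of WT control. A share of raw totals moves with the few most abundant liver transcripts. After scaling, the median of the 81 genes in a library, as its log2 distance from each gene's mean over the 12 libraries, ran from -0.246 in HKO control replicate 2 to 0.174 in WT ethanol replicate 3, and the ranges of all 4 groups overlapped.

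**Figure D3:**
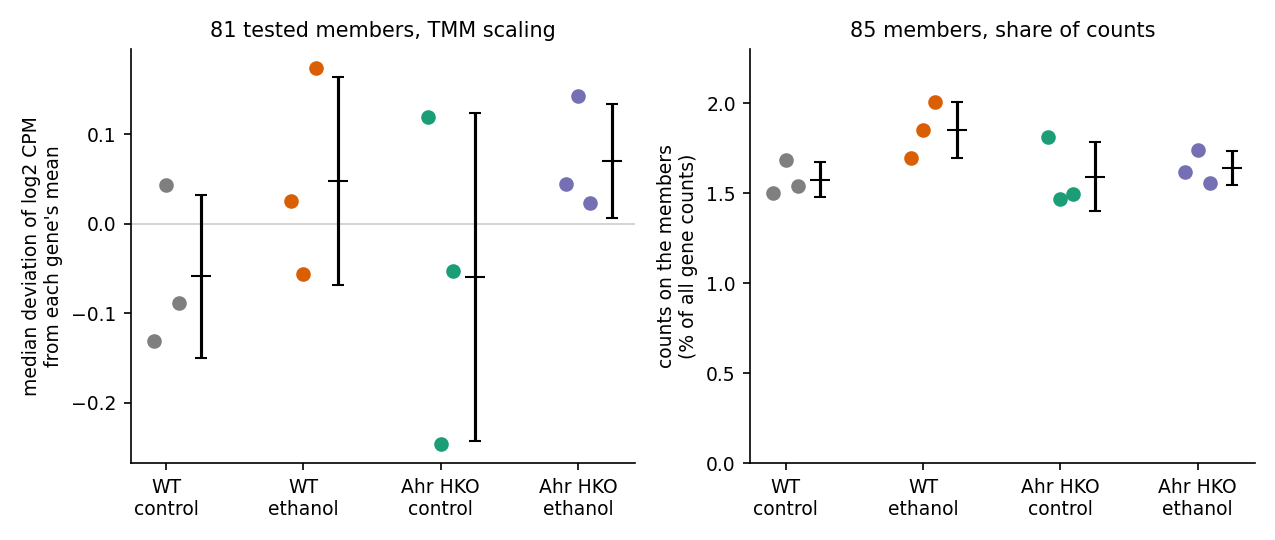
Left, the scaled median level of the 81 tested genes in each library, and right, the share of counts on all 85 genes, by group, with the group mean and SD (n = 3) as bars. The scaled medians of the 4 groups overlap, with HKO control spanning -0.246 to 0.120, and WT ethanol has the highest mean share at 1.85%.

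The genes varied together from liver to liver. The median SD of log2 CPM within a group was 0.137 for the 81 genes, 0.117 for the mitochondrial ribosomal protein genes and 0.226 for all genes tested, and it was 0.173 for the 940 genes above the lower quartile of the ribosomal protein levels. The median Pearson r between pairs of the 81 genes over the 12 libraries was 0.682, against 0.234 for pairs of mitochondrial ribosomal protein genes. For deviations from the group means these values were 0.817 and 0.241. They are descriptions, since all pairs share the same libraries and scaling. The members with the widest spread within groups were Rps27, at an SD of 1.69 through the single library described above, Rps4l at 0.455, Rpl26 at 0.361 and Rpl22l1 at 0.253.

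The first comparison asked how the ethanol diet changed these mRNAs in WT liver. No ribosomal protein gene passed the test, an edgeR quasi-likelihood test with adjusted P under 0.05, where 4.24% of all genes rose, 4.48% fell and 6.58% changed by more than 1.5-fold in either direction. At an unadjusted P under 0.05 there were 8, all with positive fold changes, which is 9.88% of the 81 against 26.1% of all genes. DESeq2 called 2 (Rps7 and Rpl34) and 17% of all genes, and limma on log2(FPKM + 1) called 12 and 13.4% of all genes. The log2 fold changes were positive in 67 of 81 genes with a median of 0.11, and the median over all genes was 0.01. They were small, within 0.2 of 0 on the log2 scale in 80.2% of the genes against 41.9% of all genes. In 16 genes every WT ethanol library exceeded every WT control library and in no gene was the reverse true, where 16.2% and 16.6% of all genes did so.

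Rps7, a small-subunit protein that also binds Mdm2, had 125, 130 and 125 CPM in WT control and 164, 149 and 163 CPM in WT ethanol. These groups did not overlap, but the log2 fold change of 0.32 ± 0.09 (SE) had an adjusted P of 0.0644 (edgeR). Large- and small-subunit genes had median log2 fold changes of 0.10 and 0.11. The stalk proteins gave log2 fold changes of 0.02 for Rplp0, -0.12 for Rplp1 and 0.01 for Rplp2, the laminin receptor gene Rpsa gave 0.12, and Rpl5 and Rpl11, which bind Mdm2 together with 5S rRNA, gave 0.05 and 0.11. Rps6, the substrate of S6 kinase, gave 0.21, Rps19, mutated in Diamond-Blackfan anemia, gave 0.19 and Rpl41 gave -0.01, none of them past the test. Fau gave 0.30 (adjusted P = 0.0984, edgeR) and Rack1 gave 0.09.

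In the same comparison 7 of 93 ribosome biogenesis genes rose and 1 fell. These were 8.6% of that list, near the 8.72% of all genes called. Nop58, a core protein of box C/D snoRNPs that guide rRNA methylation, rose by 0.87 on the log2 scale (adjusted P = 0.00544, edgeR), from 8.91 to 10.3 CPM in WT control to 16.7 to 18.0 CPM in WT ethanol. The nucleolar GTPase gene Gnl3 rose by 0.69 and the rRNA methyltransferase gene Nop2 by 0.45. Leaving out any of the 6 libraries left 1 to 3 biogenesis genes higher and 0 to 2 lower. Of 50 translation factors 1 rose and 1 fell, of 78 mitochondrial ribosomal protein genes 1 rose and 1 fell, and of 21 other TOP mRNAs none was called. Stellate and fibroblast markers summed to 154 to 215 CPM in WT control and 248 to 287 CPM in WT ethanol, with 2 of 6 higher by the test and none of the 6 at 0. Erythroid markers summed to 363 to 566 CPM and 122 to 251 CPM, with 1 of 4 lower by the test and a median log2 fold change of -1.74, and hepatocyte markers had a median of -0.55 with 1 of 6 lower. No marker of the other 4 lists was called. The part of these differences in cell type markers in the values above was not tested. In bulk liver, fewer cells of a type and less RNA per cell cannot be told apart.

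In Ahr HKO liver, the second comparison, the ethanol diet raised 4 ribosomal protein genes and lowered none by the main edgeR test. Of all genes 15% rose and 16.1% fell. Of the 4, only 1, Rpl22l1, passed a fold of 1.5, where 22% of all genes did. The 4 genes were 4.94% of the 81 tested. Rpl35, beside the exit of the peptide tunnel, had 82.4, 70.6 and 73.5 CPM in HKO control and 102, 110 and 101 CPM in HKO ethanol. It rose by 0.47 ± 0.10 (SE, log2) with an adjusted P of 0.0161 (edgeR), and the groups did not overlap. Rpl29, also known as a heparin-binding protein, had 124, 112 and 112 CPM in HKO control and 150, 150 and 156 CPM in HKO ethanol, a rise of 0.39 ± 0.10 (adjusted P = 0.0224, edgeR). Rpl35a, which is also mutated in Diamond-Blackfan anemia, had 127, 101 and 111 CPM against 142, 159 and 142 CPM, a rise of 0.38 ± 0.12 (adjusted P = 0.0489, edgeR). The genes lie at chr2:39001581-39005131 (Rpl35), chr9:106428889-106431568 (Rpl29) and chr16:33056453-33060189 (Rpl35a), and Rpl35 and Rpl35a carry the long pyrimidine runs printed above. Rpl22l1 had 7.91, 8.87 and 11.5 CPM against 14.5, 14.8 and 15.8 CPM, again without overlap, a rise of 0.67 ± 0.15 (adjusted P = 0.0174, edgeR).

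These calls were near the threshold. The count of 4 became 1 without HKO control replicate 2, HKO ethanol replicate 2 or HKO ethanol replicate 3, and Rpl35a lost its call in 11 of 17 alternatives, Rpl29 in 6 and Rpl35 in 3. Some alternatives added calls. Rpl24 was called higher with DESeq2, upper-quartile scaling, a minimum of 10 counts and a single fit of all libraries. Rpl7l1 was called lower in that single fit (-0.29, adjusted P = 0.0246, edgeR). The same held with a minimum of 10 counts, library totals and each of the FPKM fits. Quantile-normalized FPKM also called Rpl3 and Rps13 lower. Over all 81 genes 65 fold changes were positive with a median of 0.13, against -0.02 over all genes, and 69.1% lay within 0.2 of 0. With quantile-normalized FPKM the median turned to -0.05, with 25 positive and 56 negative values. In 17 genes the HKO ethanol libraries all exceeded the HKO control libraries and in 1 they were all lower, where 24.5% and 25.3% of all genes did so. Rpl41 gave 0.25, Rps19 0.24, Rpl11 0.22 and Rpsa 0.17, against -0.14 for Rplp0, -0.12 for Rplp1 and -0.09 for Rplp2, and none of these passed. Of the related genes, Fau had 158, 118 and 154 CPM in HKO control and 183, 188 and 174 CPM in HKO ethanol, without overlap. Rack1 had 435, 323 and 374 CPM against 328, 359 and 328 CPM, overlapping groups.

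The mRNAs are short. The length that the deposited counts and FPKM imply had a median of 756 bases for the 81 genes and 2913 bases for all genes, and 59 of the 81 were under 1000 bases. The 817 other tested genes under 1000 bases had a median log2 fold change of 0.27 with ethanol in HKO, and 70.9% of them were positive. In WT liver the same short genes had a median of 0.04. Between genotypes their median was -0.09 on the control diet and 0.12 on ethanol. The ribosomal protein genes had medians of -0.01 and 0.03 there. The part of length in these values was not tested.

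Other genes of ribosome synthesis fell widely with ethanol in HKO liver. Of 93 ribosome biogenesis genes 56 fell and none rose with ethanol, with a median log2 fold change of -0.51. Tsr1, needed for the maturation of the small subunit, fell by 1.76 (adjusted P = 0.000847, edgeR), Rrp1b fell by 1.89 and Nop58 by 1.6. Of 50 translation factors 19 fell and 3 rose, with Eif6, which keeps the large subunit from joining too early, falling by 1.43, Eif2b4 by 1.06 and Eif2s1 by 0.70. Leaving out single libraries left 45 to 54 biogenesis genes and 10 to 15 translation factors lower, with 12 without HKO control replicate 3 or HKO ethanol replicate 1 and 10 without HKO ethanol replicate 3.

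Mitochondrial ribosomal protein genes rose in 23 of 78 cases and fell in 2, led by Mrpl14 with a log2 fold change of 0.94, Mrpl34 with 0.85 and Mrpl12 with 0.59. Called in either direction were 32.1% of these 78 genes, near the 31.2% of all genes, of which 15% rose and 16.1% fell. Mrpl14 had 22.1, 19.5 and 26.1 CPM in HKO control and 42.2, 46.9 and 40.7 CPM in HKO ethanol. The count of 23 fell to between 8 and 17 when single libraries were left out, with 13, 10 and 17 without HKO control replicates 1, 2 and 3 and 9, 8 and 11 without HKO ethanol replicates 1, 2 and 3. Of 21 other TOP mRNAs 1 rose, Eif4b with 0.34. Kupffer cell and leukocyte markers summed to 184 to 424 CPM in HKO control and 128 to 152 CPM in HKO ethanol, with 6 of 10 lower by the test, as were 3 of 4 proliferation markers and 2 of 5 endothelial markers, and none was at 0 in all libraries. In the cholangiocyte list 1 was lower, in the stellate and fibroblast list 1 was higher, in the hepatocyte list 1 was higher and 1 lower, and no erythroid marker was called. The part of these cell type differences in the values above was not tested.

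**Figure D4:**
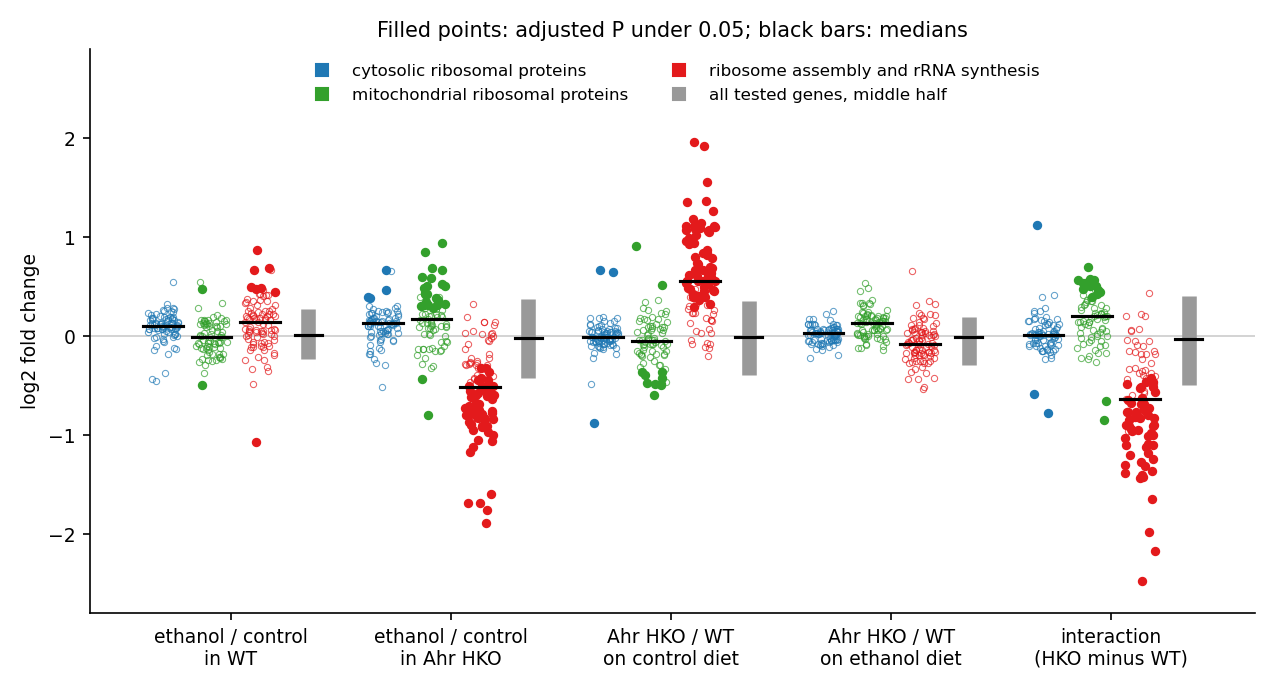
Log2 fold changes of the 81 cytosolic ribosomal protein genes, the mitochondrial ribosomal protein genes and the ribosome biogenesis genes in the 4 comparisons and the interaction, with filled points for an adjusted P under 0.05, a black bar for each median and a gray bar for the interquartile range of all tested genes. The cytosolic genes stay close to 0, with medians from -0.01 to 0.13 whose sign flips under another scaling in every comparison except ethanol in WT, while the biogenesis genes have medians of -0.51 with ethanol in HKO and 0.56 in HKO control against WT control.

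The third comparison, Ahr HKO against WT on the control diet, asked what the loss of the receptor in hepatocytes changed without ethanol. Here 2 ribosomal protein genes rose and 1 fell, where 15.3% of all genes rose, 14.4% fell and 19.8% passed a fold of 1.5 in either direction, as all 3 of these did. Most of the others varied little. Of the 81, 93.8% had a log2 fold change within 0.2 of 0 against 29.8% of all genes, and the median was -0.01, with 37 positive. That median ran from -0.10 without HKO control replicate 1 to 0.09 without HKO control replicate 2, so its sign rested on single libraries, and with log2(FPKM + 1) 42 of 81 values were positive. At an unadjusted P under 0.05 no further ribosomal protein gene was found, where 42.1% of all genes were.

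Rpl7l1 (chr17:46773907-46782656) had 44.0, 43.3 and 45.3 CPM in WT control and 68.2, 65.6 and 73.8 CPM in HKO control. It rose by 0.65 ± 0.09 (SE, log2) with an adjusted P of 0.00272 (edgeR), the lowest HKO control library lying well above the highest WT control library. In all 17 alternatives it kept its call, with values from 0.58 to 0.68. Its partner Rpl7, the large-subunit protein itself, had 251, 276 and 257 CPM in WT control and 293, 235 and 264 CPM in HKO control, overlapping groups with a log2 fold change of 0.01.

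Rpl22l1 (chr3:28805508-28807424) went in the opposite direction. It had 20, 17.6 and 14.2 CPM in WT control and 7.91, 8.87 and 11.5 CPM in HKO control, and it fell by 0.87 ± 0.18 on the log2 scale (adjusted P = 0.0117, edgeR), without overlap and in all 17 alternatives. Rpl22 (chr4:152324436-152334082), whose protein is known to repress its paralog by binding the paralog's RNA, had 82.9, 93.9 and 85.4 CPM against 95.5, 74.8 and 82.4 CPM, a log2 fold change of -0.05 with overlapping groups. Rps4l gave -0.22 and Rps27l 0.01, with Rps4x at -0.01, and none of these passed. Rps27, the partner of Rps27l, gave -0.48 ± 1.03, not past the test, with 78.9, 88.7 and 84.8 CPM in WT control and 97.0, 82.1 and 1.51 CPM in HKO control, the last in the library whose counts stood at Rps27rt.

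**Figure D5:**
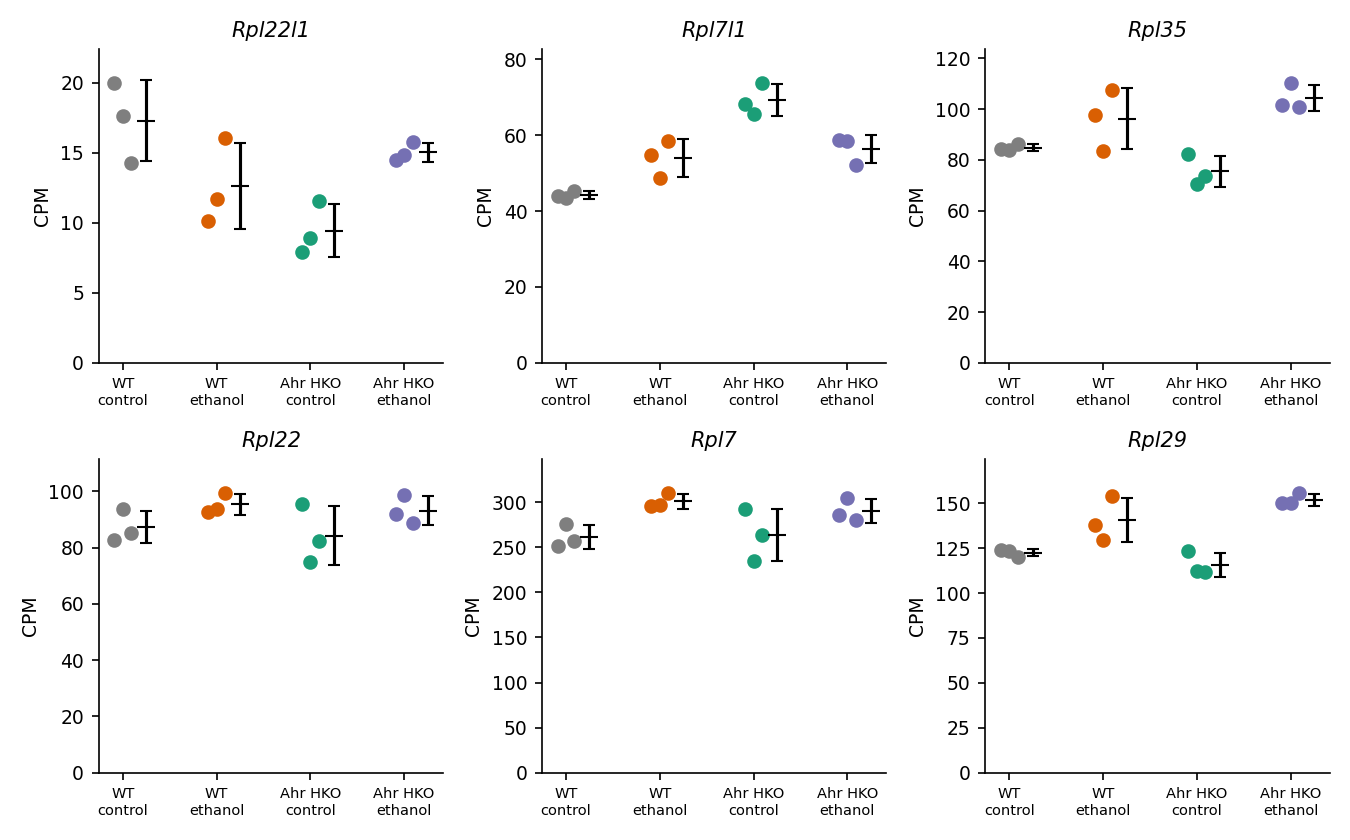
CPM of Rpl22l1, Rpl7l1, their partners Rpl22 and Rpl7, and Rpl35 and Rpl29 in the 12 libraries by group, with the group mean and SD (n = 3) as bars and each axis from 0. HKO control has the highest mean of Rpl7l1 (69.2) and the lowest of Rpl22l1 (9.43), the partners overlap between WT control and HKO control, and Rpl35 and Rpl29 are higher in every HKO ethanol library than in HKO control.

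Rpl34 had 5.48, 8.5 and 6.83 CPM in WT control and 11.7, 9.20 and 12.2 CPM in HKO control, a log2 fold change of 0.67 ± 0.19 (adjusted P = 0.0363, edgeR). With the counts of Rpl34 and Rpl34-ps1 added together, an alternative chosen after seeing the data, the log2 fold change was 0.07 (adjusted P = 0.745, edgeR). The copy holds 88.6% to 94.0% of that sum, so a change of Rpl34 alone would hardly move it, and the sum does not test the call. Single libraries decided the call, since the adjusted P was 0.0948 and 0.0995 without WT control replicate 1 or 3, and 0.0894 and 0.0864 without HKO control replicate 1 or 3 (edgeR).

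Genes of ribosome synthesis were widely higher in HKO control, the libraries that this comparison shares with that of the diets in HKO. Of 93 ribosome biogenesis genes 64 rose and none fell, with a median log2 fold change of 0.56, and Nop58 rose by 1.96 and Nop2 by 1.05, both with an adjusted P of 0.000718 (edgeR). Nop58 had 32.7, 33.1 and 43.8 CPM in HKO control, above all libraries of the other groups, which ran from 8.91 to 18.0 CPM. Of 50 translation factors 24 rose and 3 fell, including Eif6, which rose by 1.53 with 141, 125 and 145 CPM in HKO control against 39.2, 52.0 and 51.5 CPM in WT control, and Eif1a, which rose by 1.90. Leaving out single libraries left 48 to 60 biogenesis genes and 15 to 22 translation factors higher, the 15 without WT control replicate 3 and 16 without replicate 1 or 2.

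Of 78 mitochondrial ribosomal protein genes 2 rose and 9 fell, and 5, 4 and 2 fell without WT control replicate 1, 2 or 3, and 6 or 7 without a single HKO control library. With all libraries 14.1% of the 78 were called in either direction, against 29.7% of all genes. Among the 28 genes that regulate TOP mRNAs and the p53 response to ribosomal proteins, 6 rose and 4 fell. That is 35.7% of this list, near the 29.7% of all genes called. Cdkn1a, the cell cycle inhibitor p21, rose by 4.44 (adjusted P = 0.000444, edgeR) and Tsc1, an inhibitor of mTORC1, fell by 0.79. Of the other TOP mRNAs Eif4b fell by 0.42. Fau gave 0.11 and Rack1 0.18, neither past the test. Kupffer cell and leukocyte markers summed to 206 to 258 CPM in WT control and 184 to 424 CPM in HKO control, with 1 of 10 lower by the test, and cholangiocyte markers to 40.3 to 132 CPM and 44.5 to 476 CPM, with 1 of 5 higher. Erythroid markers summed to 363 to 566 CPM and 83.1 to 289 CPM, without overlap, with 1 of 4 lower and a median of -1.31. Of the hepatocyte and endothelial markers 1 each was higher, of the stellate and fibroblast markers 1 was lower, and no proliferation marker was called. Their part in the values above was not tested.

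On the ethanol diet, the fourth comparison, no ribosomal protein gene differed between Ahr HKO and WT by the edgeR test, none had an unadjusted P under 0.05 where 21% of all genes did, and DESeq2 and limma called none where they called 10.8% and 2.72% of all genes. Of all genes 0.684% were higher, 0.378% lower and 1.03% past a fold of 1.5. Within 0.2 of 0 on the log2 scale lay 96.3% of the 81 genes, with a median of 0.03 and 49 positive. This direction depended on the scaling, since library totals gave a median of -0.16 with 2 positive and 79 negative, while the median of all genes moved to -0.20. Relative to all genes the ribosomal protein genes stood at 0.04 under both scalings and at -0.05 with log2(FPKM + 1). Rpl7l1 had 54.7, 48.7 and 58.6 CPM in WT ethanol and 58.6, 58.5 and 52.2 CPM in HKO ethanol, a log2 fold change of 0.06 ± 0.11, and Rpl22l1 had 10.1, 11.7 and 16.0 CPM against 14.5, 14.8 and 15.8 CPM, a log2 fold change of 0.25 ± 0.17.

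No biogenesis gene, translation factor or mitochondrial ribosomal protein gene was called by edgeR in that comparison. Unadjusted P values under 0.05 were found for 9, 1 and 11 of them, and DESeq2 called 1 biogenesis gene higher and 3 lower, and 5 mitochondrial ribosomal protein genes higher. Of the cell type markers 1 erythroid gene was higher and no other was called. Kupffer cell and leukocyte markers still summed to 169 to 423 CPM in WT ethanol and 128 to 152 CPM in HKO ethanol, without overlap. An unadjusted P under 0.05 (edgeR) was found for 8 of these 10, where 21% of all genes had one. It was also found for 3 of 4 proliferation, 3 of 6 stellate and fibroblast and 4 of 6 hepatocyte markers. The endothelial, cholangiocyte and erythroid lists had 1 each. The part of these markers was not tested.

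The interaction asked whether the response to ethanol differed between the genotypes. It was positive by the test for 1 ribosomal protein gene and negative for 2, where 11.2% and 11.1% of all genes were called, and 4 had an unadjusted P under 0.05 where 36.4% of all genes did. For Rpl22l1 the response in HKO exceeded that in WT by 1.13 ± 0.27 (SE, log2, adjusted P = 0.0135, edgeR). Its levels give -0.45 ± 0.20 with ethanol in WT (adjusted P = 0.203, edgeR) and a rise of 0.67 ± 0.15 in HKO (adjusted P = 0.0174, edgeR), the second of which lost its call without HKO control replicate 2 (0.0558) or HKO ethanol replicate 3 (0.0598). The group means were 17.3 ± 2.9 CPM in WT control, 12.6 ± 3.1 in WT ethanol, 9.43 ± 1.9 in HKO control and 15 ± 0.67 in HKO ethanol (SD, n = 3). Rpl22 had an interaction of 0.02.

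For Rpl7l1 the interaction was -0.58 ± 0.13 (adjusted P = 0.00881, edgeR). Its response to ethanol was 0.29 in WT (adjusted P = 0.107, edgeR) and -0.29 in HKO (adjusted P = 0.0612, edgeR), neither past the main test by itself. Some alternatives called each of these responses. Library totals gave 0.42 in WT (adjusted P = 0.0269, edgeR) and -0.36 in HKO (adjusted P = 0.0376, edgeR). The group means were 44.2 ± 0.98, 54.0 ± 4.9, 69.2 ± 4.2 and 56.4 ± 3.7 CPM in WT control, WT ethanol, HKO control and HKO ethanol (SD, n = 3). Both interactions were called in all 22 alternatives, from 0.88 to 1.34 for Rpl22l1 and from -0.82 to -0.52 for Rpl7l1. Rpl7, the partner, had an interaction of -0.07.

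For Rpl34 the interaction was -0.77 ± 0.23 (adjusted P = 0.0326, edgeR), and 0.03 (adjusted P = 0.935, edgeR) for the sum with its copy, which is mostly the copy and does not test Rpl34 itself. It lost its call without any of 8 single libraries, with adjusted P values from 0.0569 to 0.0732 (edgeR). The median over the 81 genes was 0.02 with 46 positive, and turned to -0.18 with library totals, where the median of all genes was -0.23. Rpl41 gave 0.26, Rps6 -0.15 and Rplp0 -0.16, and Rack1 gave -0.25, none past the test.

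In the interaction the biogenesis genes were called lower in 55 of 93 cases and higher in none, with Nop58 at -2.47 (adjusted P = 7.76e-05, edgeR), Tsr1 at -1.98 and Ddx21 at -1.4, and 44 to 53 were lower when single libraries were left out. Of 50 translation factors 20 were lower and 2 higher, and of 78 mitochondrial ribosomal protein genes 14 were higher and 2 lower, a count that was 0 higher with library totals and with log2(FPKM + 1). It was 13 without WT ethanol replicate 1 or HKO control replicate 3 and 5 to 9 without any other single library. With all libraries 20.5% of the 78 were called in either direction, near the 22.3% of all genes. The interaction uses the same 12 libraries as the comparisons above. The Kupffer cell and leukocyte list had 4 of 10 lower, the endothelial, cholangiocyte and proliferation lists 1 lower each, the erythroid list 1 higher and the hepatocyte list 1 higher and 1 lower. The short genes had a median of 0.23. Their part was not tested.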

How the data were processed

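RNA of 12 livers was enriched for poly(A), made into strand-specific TruSeq libraries and read as 2 × 100 bases. Per the submitters' processing notes, FastQC 0.11.7, Trimmomatic 0.38, HISAT2 2.1.0, Bowtie2 2.3.4.1 and StringTie 1.3.4d were used with the mm10 build. The authors deposited a table of 24532 genes with raw read counts, FPKM and TPM per library. FPKM were deposited by the authors as levels per transcript length and library size, and the TPM they deposited were not used. No library was left out.

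Counts of the table were tested with edgeR 4.0.16 (R 4.3.3) by quasi-likelihood F test after TMM scaling over the 12 libraries and filterByExpr over the 4 groups, which kept 14038 of the 17220 genes with a count. Each pair of groups was fitted on its own 6 libraries, and the interaction, the ethanol response in HKO minus that in WT, on all 12. P values were adjusted by Benjamini-Hochberg over all tested genes, and a call is an adjusted P under 0.05. CPM are counts over the TMM-scaled library total, and log2 values of libraries used a prior count of 2. Alternatives used DESeq2 1.42.0, limma 3.58.1 on log2(FPKM + 1), on log2(FPKM + 0.1) and on quantile-normalized values, upper-quartile and total scaling, no filter, a minimum of 10 counts, a single fit of all libraries, a replicate block and each library left out. On the log2(FPKM + 1) scale, changes of low genes are understated. The scripts were tested on simulated data. Figures were drawn with matplotlib 3.10.9 (Python 3.11.15).

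The genes and the lists beside them were chosen with earlier results of these data known. Named were, per comparison, up to 5 called ribosomal protein genes with the largest increase and 5 with the largest decrease, all called in the interaction, the 3 with the highest mean FPKM, the stalk proteins, Rpsa, Rpl5, Rpl11, Rps6, Rps19, Rpl41, the paralogs with their partners, Fau and Rack1, and up to 3 genes with the smallest adjusted P from each other list. Rps7, the genes below an FPKM of 100 and those with copies were added after their values were seen. Genes were matched to start windows of RefSeq (GRCm38.p6) and to transcripts of GENCODE M21 by symbol, and 64 of the 85 had a start window. A gene that the rule names is not reported here.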

Additional observations from a re-analysis of the deposited data

Results flagged for a closer look

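For 3 ribosomal protein genes the response to ethanol differed between WT and Ahr HKO liver, by the test of the difference itself (edgeR interaction, adjusted P under 0.05). These were 3.7% of the 81 tested, against 22.3% of all genes. For Rpl22l1 the difference, HKO minus WT, was 1.13 on the log2 scale (adjusted P = 0.0135, edgeR), with ethanol values of -0.45 in WT and 0.67 in HKO. For Rpl7l1 it was -0.58 (adjusted P = 0.00881, edgeR), with ethanol values of 0.29 in WT and -0.29 in HKO. For Rpl34 it was -0.77 (adjusted P = 0.0326, edgeR), with 0.54 in WT and -0.23 in HKO, and most counts of the pair stood at its copy Rpl34-ps1. The Rpl34 call was lost without any of 8 single libraries.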

How the results depend on the processing

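Of the fits without a left-out library, 44 medians and 47 counts of called ribosomal protein genes stayed within the set limits, and 10 medians and 7 counts did not. In WT with ethanol the count of 0 called became 2 with DESeq2, 3 with library totals, 1 with at least 10 counts in every library, 12 with log2(FPKM + 1), 12 with log2(FPKM + 0.1) and 1 in a single fit of all libraries, and the median of 0.106 became 0.241, 0.278 and 0.279 with library totals and both FPKM scales. With ethanol in HKO the median became -0.0487 with quantile-normalized FPKM. Between genotypes on ethanol it became -0.164, -0.184 and -0.185, and in the interaction -0.179, -0.212 and -0.214, with library totals, log2(FPKM + 1) and log2(FPKM + 0.1). Library totals moved the median of all genes with ethanol in WT to 0.149. Relative to all genes the WT ethanol median stayed between 0.0567 and 0.180 under these scalings. As shares of summed FPKM the genes held 3.46% in WT control, 4.47% in WT ethanol, 3.71% in HKO control and 3.68% in HKO ethanol. The interaction of Rpl34 turned to 0.0264 with its copy added, an alternative chosen after seeing the data in which the copy makes up most of the sum, so that it does not test Rpl34. The causes of these shifts were not tested.

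With single libraries left out, medians ran from 0.0441 to 0.160 for ethanol in WT, 0.0422 to 0.22 for ethanol in HKO, -0.104 to 0.0901 for genotype on the control diet, -0.0361 to 0.0990 for genotype on ethanol and -0.0920 to 0.114 for the interaction. Called genes ran from 0 to 0, 1 to 4, 2 to 3, 0 to 0 and 2 to 3 in that order. Shares of counts ran from 1.52% to 1.61% in WT control, 1.77% to 1.93% in WT ethanol, 1.48% to 1.65% in HKO control and 1.59% to 1.68% in HKO ethanol. Of the fits of named genes, 93 kept the call, 13 lost it and 1 reversed, and with a library left out 55 kept it and 23 lost it.

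Same-numbered livers correlated between -0.09 and 0.18 in their deviations from the group means, so the numbers were not taken to pair samples. With replicate number as a block, 1 ribosomal protein gene was called with ethanol in HKO in place of 4, and the other counts stayed within 1.5 times. With 3 livers per group, small shifts such as these medians lie within the spread between livers, and members with few counts, such as Rpl26, have wide counting error.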
